A study of Homo sapiens with 6 samples.

Results

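The genes described here are 34 genes of the endoplasmic reticulum (ER) stress response and the integrated stress response, out of 21462 genes in the count table. They were taken by symbol from a fixed list, and all 34 were found. They fall into an ER folding and degradation arm of 22 genes and an integrated stress response arm of 12 genes. The first holds the sensors with the factor XBP1, chaperones, disulfide isomerases and genes of ER-associated degradation. The second holds ATF4, ATF5, DDIT3 and targets of ATF4. RNA-seq counts were compared between control A431 cells (A431CT, 3 libraries, genotype WT) and A431 cells with CRISPR/Cas9 knockout of DSG2 (Dsg2KO, 3 libraries). A431 is an established human epidermoid carcinoma line, and all 6 libraries came from cells without a drug treatment in their labels. Dsg2 is a desmosomal cadherin that holds neighboring keratinocytes together. How many clones stand behind each line is not stated in the sources used here, so loss of DSG2 and other differences between the lines cannot be told apart. P-values therefore measure the spread between these libraries.

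The ER folds and modifies proteins on their way to the cell surface or the outside of the cell. When unfolded proteins accumulate, the sensors ATF6, IRE1 (encoded by ERN1) and PERK (encoded by EIF2AK3) switch on the unfolded protein response. ATF6 and the spliced form of XBP1 raise chaperones and degradation factors. PERK phosphorylates the initiation factor eIF2, which slows translation in general but favors translation of ATF4. Other kinases that sense amino acid shortage, double-stranded RNA or heme shortage act on the same factor, and for this reason the ATF4 branch is called the integrated stress response. Keratinocytes, which make large amounts of adhesion proteins, matrix and lipids, use these pathways during differentiation. Much of the response acts on proteins and on splicing, which counts per gene do not measure.

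Library totals lay between 12845719 and 13650746 counts in A431CT and between 14786041 and 16255692 in Dsg2KO cells. All Dsg2KO libraries were thus deeper, and raw counts given below are not scaled for this. As counts scaled to library size (CPM), DSG2 stood at 323 ± 6.08 (SD, n = 3) with the gene intact and at 51.9 ± 2.88 (SD, n = 3) after knockout, a log2 fold change of -2.64, so each library matched its label. The 7 epithelial markers summed to 10280 to 10920 CPM in A431CT and 11260 to 11650 CPM in Dsg2KO cells, mostly EGFR, and KRT14 among them was at 0.155 CPM or below. How reads shared with copies elsewhere in the genome were assigned is not given, so this low KRT14 value need not mean absence. The 6 fibroblast markers summed to 0.0612 to 0.470 CPM over all libraries, and COL1A2 and PDGFRA among them had no count. The 4 endothelial markers PECAM1, VWF, CDH5 and KDR summed to 8.45 to 11.3 CPM in A431CT and 15.1 to 15.7 CPM in Dsg2KO cells, with KDR at 0 in A431CT cells. In the edgeR test described below, CDH5 (log2 fold change 0.76, edgeR adjusted p = 0.0035) and PECAM1 (0.54, edgeR adjusted p = 0.0466) were higher, and VWF did not pass. KRT18 (0.345), CDH1 (0.28) and EGFR (0.11) also passed as higher and KRT5 (-0.13) as lower, while EPCAM and TP63 did not pass. What these marker differences contribute to the results was not tested. Mitochondrial genes took 0.789% to 0.914% of the counts, with overlapping ranges in A431CT and Dsg2KO cells.

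The stress genes as a whole did not move in one direction. Of the 34 genes, 33 had enough counts for the test, which was edgeR's quasi-likelihood test with Benjamini-Hochberg adjustment over all 12857 tested genes. At an adjusted p-value under 0.05, 5 of the 33 were higher in Dsg2KO cells (HSPA5, DNAJB11, DNAJB9, PSAT1 and PPP1R15A) and 2 were lower (SLC7A11 and HSP90B1). Among all tested genes 14.3% were higher and 15.3% lower by the same rule, so the share of higher stress genes was close to the background and the share of lower ones below it. With a minimum log2 fold change of 0.5 added, SLC7A11 was the 1 gene that passed as lower and 0 genes passed as higher, against 3.03% and 2.99% of all genes. At an unadjusted p-value under 0.05 the number of higher genes past that minimum was also 0, and DESeq2 gave 0 as well. The 3 Dsg2KO libraries all lay above the 3 A431CT libraries for 7 of the 33 genes and all below them for 4, against 21.2% and 21.4% of all tested genes. The median log2 fold change of the 33 genes was 0.01, against -0.01 for all tested genes (-0.005 before rounding).

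The intervals around these values were narrow. For 29 of the 33 genes the whole 95% interval of the log2 fold change lay within 0.5 of 0 on either side, and the exceptions were DNAJB9, DDIT3, CHAC1 and SLC7A11. RNA in bulk samples was measured, so fewer cells expressing a gene and less RNA per cell cannot be told apart.

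**Figure D1:**
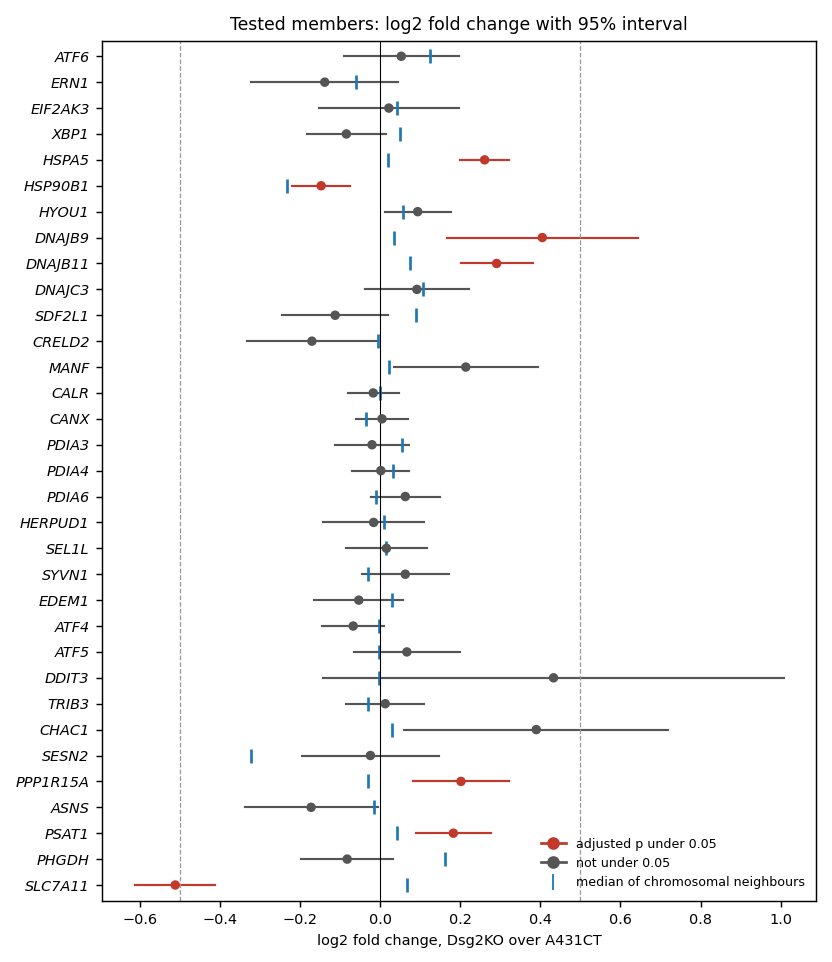
Log2 fold change (Dsg2KO over A431CT, x axis) of the 33 tested stress genes, with 95% intervals as bars, red where the adjusted p-value is under 0.05, dashed lines at 0.5 in size, and a blue tick at the median of up to 25 tested genes on each side on the chromosome. Of the 7 red genes 5 lie to the right of 0, and SLC7A11, at -0.51, is the 1 whose point passes a dashed line.

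Among the 11 chaperones and their partners, 3 rose, 1 fell and 7 did not pass the adjusted p-value. By the same rule 14.3% of all tested genes were higher and 15.3% lower, and no difference from these shares was tested. HSPA5 encodes BiP, the main ER Hsp70 chaperone, which also keeps the stress sensors inactive. It was at 919, 887 and 903 CPM in A431CT and 1079, 1085 and 1082 CPM in Dsg2KO cells. All Dsg2KO libraries lay above all A431CT libraries, with a gap that was wide beside the spread within either condition. The log2 fold change was 0.26 (standard error, SE, 0.03, edgeR adjusted p = 1.07e-05), a 1.198-fold higher level.

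HSP90B1 encodes GRP94, the ER form of Hsp90, and usually rises together with HSPA5 under ER stress. Here it was at 892, 837 and 891 CPM in A431CT and 782, 783 and 800 CPM in Dsg2KO cells. The Dsg2KO libraries were all lower, with a log2 fold change of -0.15 (SE 0.03, edgeR adjusted p = 0.00385). Within single libraries the count of HSPA5 over that of HSP90B1 was 1.03, 1.06 and 1.01 in A431CT and 1.38, 1.39 and 1.35 in Dsg2KO cells. This ratio needs no scaling between libraries. Its ranges could not overlap, because all Dsg2KO libraries were higher for HSPA5 and lower for HSP90B1, so it adds no separate evidence. The genes around HSP90B1 on chromosome 12 were themselves lower, with a median log2 fold change of -0.23 over its 50 nearest tested neighbors, and HSP90B1 stood 0.08 above that median. Its direction is therefore reversed when it is read against its neighborhood.

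DNAJB11 and DNAJB9 encode ERdj3 and ERdj4, co-chaperones that stimulate the ATPase of BiP and bring it substrates. DNAJB11 was at 154, 143 and 146 CPM in A431CT and 182, 176 and 183 CPM in Dsg2KO cells. This gave a log2 fold change of 0.29 (SE 0.04, edgeR adjusted p = 1.13e-04), and the conditions did not overlap. DNAJB9 is also known as a strong target of IRE1 and XBP1. It was expressed at a low level, with 129 to 152 counts per A431CT library and 211 to 244 per Dsg2KO library. On the CPM scale it was at 12.0, 10.6 and 10.0 in A431CT and 14.2, 14.9 and 14.03 in Dsg2KO cells, again without overlap. Its log2 fold change was 0.41 (SE 0.11, edgeR adjusted p = 0.0126), with a 95% interval of 0.17 to 0.64, and with DESeq2 its adjusted p-value was 0.04999.

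Sequences upstream of these genes are shown for the ER stress element, the site bound by ATF6 together with NF-Y. It is a feature of some classical ER stress targets and not of all. The element was searched as CCAAT, then 9 bases of any kind, then CCACG, on either strand. The window was 300 bases long (250 before and 50 after the RefSeq start, GRCh38.p14), and 32 of the 34 genes had one. An exact match stood in 6 of 21 folding arm promoters, in 0 of 11 promoters of the integrated arm, and in 0.126% of all 15088 promoters of genes in the count table. The element was originally defined on HSPA5 and its relatives, so this share is a description of the group and not independent evidence. The matches are given below in the direction of the element, with CCAAT and CCACG in capitals.
HSPA5, chr9:125241391-125241409, minus strand: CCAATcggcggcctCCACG
HSP90B1, upstream match, chr12:103930216-103930234, plus strand: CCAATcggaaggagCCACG
HSP90B1, downstream match, chr12:103930321-103930339, minus strand: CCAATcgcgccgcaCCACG
XBP1, chr22:28800603-28800621, minus strand: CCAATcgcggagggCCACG
CRELD2, chr22:49918554-49918572, minus strand: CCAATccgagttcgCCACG
CALR, chr19:12938384-12938402, minus strand: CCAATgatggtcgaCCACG
CANX, chr5:179698778-179698796, plus strand: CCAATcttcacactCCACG

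The 6 genes with an exact element did not move together. HSPA5 rose, HSP90B1 fell, and XBP1, CRELD2, CALR and CANX did not pass the adjusted p-value. Their median log2 fold change was -0.05, and that of the 15 folding arm genes without a match was 0.05, against -0.005 for all tested genes. The 250 bases upstream of the start are printed for the 3 folding arm genes with the smallest p-values, in lower case on the gene's own strand, with each full element in capitals, also where it lies on the opposite strand.
HSPA5, chr9:125241344-125241593, minus strand: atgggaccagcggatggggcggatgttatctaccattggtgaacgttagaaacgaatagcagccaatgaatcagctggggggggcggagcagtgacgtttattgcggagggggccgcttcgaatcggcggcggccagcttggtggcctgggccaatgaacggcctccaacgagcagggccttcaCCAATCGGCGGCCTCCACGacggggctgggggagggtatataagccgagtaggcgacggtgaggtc
HSP90B1, chr12:103930160-103930409, plus strand: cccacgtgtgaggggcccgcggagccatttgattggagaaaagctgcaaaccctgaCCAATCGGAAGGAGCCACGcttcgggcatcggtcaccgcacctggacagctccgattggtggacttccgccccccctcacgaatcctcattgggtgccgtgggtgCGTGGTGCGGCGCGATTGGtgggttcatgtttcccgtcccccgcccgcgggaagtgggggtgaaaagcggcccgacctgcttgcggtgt
DNAJB11, chr3:186570470-186570719, plus strand: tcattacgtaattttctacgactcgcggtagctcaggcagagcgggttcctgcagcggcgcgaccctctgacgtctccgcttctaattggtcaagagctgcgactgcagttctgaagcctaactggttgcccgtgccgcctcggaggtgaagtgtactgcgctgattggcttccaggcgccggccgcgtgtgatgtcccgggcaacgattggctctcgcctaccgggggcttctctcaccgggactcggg

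In these windows HSPA5 and HSP90B1 held the element and moved in opposite directions, while DNAJB11 rose and held no exact match. Read against its chromosomal neighbors, with a median of -0.23, HSP90B1 was not lower but 0.08 higher. In HSPA5 the match ended 48 bases before the start, and in HSP90B1 the matches ended 176 and 71 bases before it. The shorter unfolded protein response element TGACGTGG was found in HYOU1 only among the stress genes (0.855% of all promoters). The amino acid response element was searched as TGATG, 1 base of any kind, then AAT. This fixed form was found in 0 of the 32 promoters (0.623% of all promoters). The ASNS window held TGATG, 1 base, then AAC on the gene's own strand, and the CHAC1 window held this form on the opposite strand. Forms with a last base other than T were not counted, so the 0 does not show that the element is absent. A missing match says only that these letters are not in the window.

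The remaining chaperone genes did not pass. HYOU1, an ER Hsp110 that exchanges the nucleotide of BiP, was at 195, 192 and 198 CPM in A431CT and 207, 204 and 213 CPM in Dsg2KO cells. Its libraries did not overlap, yet its log2 fold change was 0.09 (edgeR adjusted p = 0.0786). MANF, a secreted ER stress protein, was at 41.8, 36.6 and 39.3 CPM in A431CT and 42.8, 51.9 and 41.6 CPM in Dsg2KO cells, so a single Dsg2KO library stood well above the others and the conditions overlapped. Its log2 fold change was 0.21 (edgeR adjusted p = 0.0671), and it was 0.28 (edgeR adjusted p = 0.0358) without Dsg2KO replicate 3 and 0.11 (edgeR adjusted p = 0.33) without Dsg2KO replicate 2. CRELD2, another ER stress protein, was at 32.4, 28.7 and 32.6 CPM in A431CT and 26.0, 28.6 and 28.5 CPM in Dsg2KO cells. The conditions were separated by a gap far smaller than their spread, and the log2 fold change was -0.17 (edgeR adjusted p = 0.11), or -0.23 (edgeR adjusted p = 0.0454) without A431CT replicate 2. CRELD2 shares 168 exonic bases with ALG12 on the opposite strand, which had a log2 fold change of -0.19, and reads of these genes cannot be told apart where the counting ignored strand. The same limit holds for genes that passed. On the opposite strand, HSP90B1 shares 805 exonic bases with UQCC6, SLC7A11 865 with SLC7A11-AS1, and DNAJB11 496 with HRG-AS1 and 381 with TBCCD1. DNAJB11 also shares 451 with an unnamed gene on its own strand. Of these partners only TBCCD1 was in the count table, with a log2 fold change of -0.04.

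DNAJC3, which encodes the inhibitor of PERK known as p58IPK, had a log2 fold change of 0.09, and SDF2L1, a partner of ERdj3, one of -0.11. The lectin chaperones were among the most abundant genes of the group. CALR (calreticulin) was at 1364 ± 21.4 CPM (SD, n = 3) in A431CT and 1348 ± 40.9 (SD, n = 3) in Dsg2KO cells, with a 95% interval of the log2 fold change from -0.08 to 0.05. CANX (calnexin) was at 1804 ± 43.2 and 1810 ± 60.2 CPM, with an interval of -0.06 to 0.07. Scaled to the union of all annotated exons, the A431CT level of CALR was 487 CPM per kilobase, that of HSPA5 138 and that of CANX 131, while DNAJB9 stood at 4.28. This union was 2802 bases for CALR, 6530 for HSPA5 and 13764 for CANX. It need not be the length of the expressed transcript, so these scaled levels do not rank the genes. The summed level of the 22 folding arm genes was 7458, 7232 and 7416 CPM in A431CT and 7438, 7479 and 7633 CPM in Dsg2KO cells, so the conditions overlapped.

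**Figure D2:**
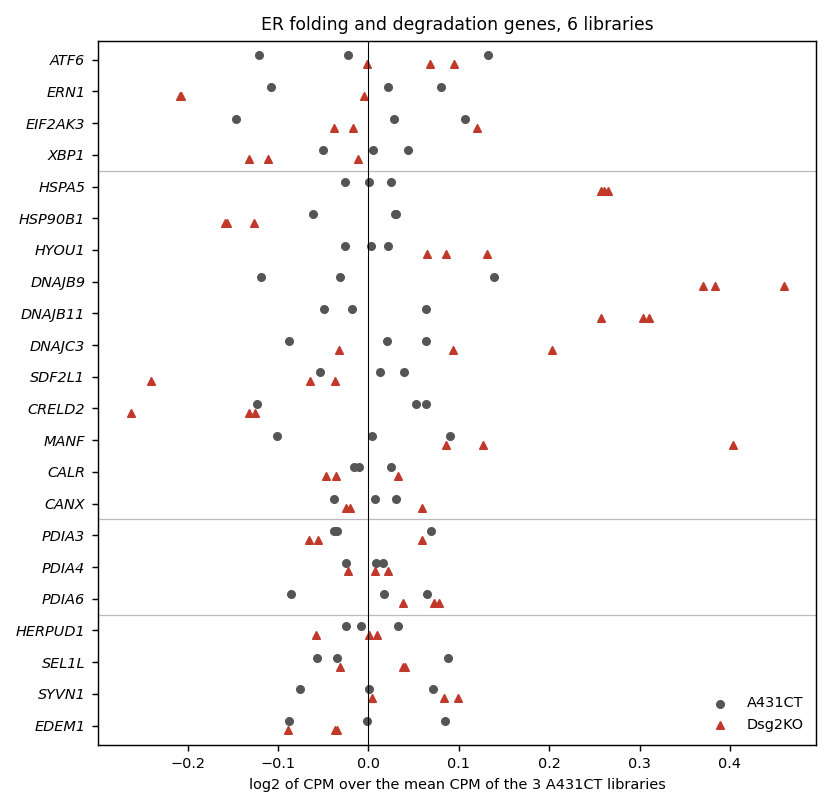
Log2 of the CPM in each library over the mean of the 3 A431CT libraries (x axis) for the 22 folding arm genes, with A431CT libraries as grey circles and Dsg2KO libraries as red triangles. Grey lines stand between sensors (with XBP1), chaperones, disulfide isomerases and degradation genes. HSPA5, DNAJB9, DNAJB11 and HYOU1 show red triangles to the right of all circles, and HSP90B1 and CRELD2 show them to the left. HYOU1 and CRELD2 did not pass the adjusted p-value. In the lower groups the symbols are mixed.

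No disulfide isomerase and no degradation gene passed, and in both groups 0 genes passed at an unadjusted p-value under 0.05 or by DESeq2's adjusted p-value. PDIA3, PDIA4 and PDIA6 form and rearrange disulfide bonds in new proteins. PDIA4 was at 488, 499 and 502 CPM in A431CT and 499, 489 and 504 CPM in Dsg2KO cells, a log2 fold change of 0.00 with a 95% interval of -0.07 to 0.07. PDIA3 had a log2 fold change of -0.02 (interval -0.11 to 0.07) and PDIA6 one of 0.06 (interval -0.02 to 0.15). HERPUD1, an ER membrane protein that organizes the degradation complex and is a target of both arms, was at 40.7, 41.2 and 42.4 CPM in A431CT and 41.5, 39.8 and 41.7 CPM in Dsg2KO cells. SYVN1, the ubiquitin ligase HRD1, had a log2 fold change of 0.06 (interval -0.05 to 0.17) and its cofactor SEL1L one of 0.02 (interval -0.08 to 0.12). EDEM1, a mannosidase-like protein that directs glycoproteins to degradation, had one of -0.05 (interval -0.16 to 0.06).

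The sensors ATF6, ERN1 and EIF2AK3 and the factor XBP1 were also called in 0 of 4 cases by edgeR. The same held at an unadjusted p-value under 0.05 and by DESeq2. By edgeR's adjusted p-value 14.3% of all tested genes were higher and 15.3% lower. ATF6 was at 49.2, 54.8 and 46.0 CPM in A431CT and 52.4, 53.4 and 49.95 CPM in Dsg2KO cells, with overlapping ranges. ERN1 had a log2 fold change of -0.14 (95% interval -0.32 to 0.05) and EIF2AK3 one of 0.02 (interval -0.15 to 0.20). XBP1 was at 130, 134 and 125 CPM in A431CT and 118, 129 and 120 CPM in Dsg2KO cells, a log2 fold change of -0.08 (edgeR adjusted p = 0.19). These counts sum the spliced and unspliced forms of XBP1.

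In the integrated stress response arm, 2 of the 11 tested genes rose, 1 fell and 8 did not pass. The 18.2% that rose stand beside 14.3% of all tested genes, and 15.3% of all tested genes were lower. No difference from these shares was tested. The factor ATF4 is controlled mainly at translation. Its RNA was at 408, 417 and 396 CPM in A431CT and 396, 392.2 and 377 CPM in Dsg2KO cells, so that all Dsg2KO libraries lay slightly lower. The log2 fold change was -0.07 (SE 0.04, edgeR adjusted p = 0.19). ATF5, a related factor under the same translational control, had a log2 fold change of 0.07 with overlapping libraries. DDIT3 encodes CHOP, a factor that promotes cell death under lasting stress. It had only 30, 34 and 39 counts in A431CT and 60, 38 and 70 counts in Dsg2KO cells. As CPM these were 2.36, 2.51 and 3.02 against 4.03, 2.33 and 4.33, so 2 Dsg2KO libraries stood above all A431CT libraries and 1 just below them. The log2 fold change of 0.43 had a 95% interval from -0.14 to 1.01 (edgeR adjusted p = 0.26). This interval holds 0 and also values past the minimum of 0.5. DDIT3 also shares 355 exonic bases with MARS1 on the opposite strand, which was at 131 CPM in A431CT cells.

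Of the targets that feed back on the response or promote death, PPP1R15A passed. It encodes GADD34, which brings a phosphatase to eIF2 and so restores translation. It was at 57.0, 54.4 and 61.6 CPM in A431CT and 66.3, 66.3 and 66.4 CPM in Dsg2KO cells, without overlap. The log2 fold change was 0.20 (SE 0.06, edgeR adjusted p = 0.0127), and without A431CT replicate 2 it was 0.16 (edgeR adjusted p = 0.056). CHAC1, a glutathione-degrading enzyme and sensitive ATF4 target, had 80, 110 and 108 counts in A431CT and 172, 148 and 151 counts in Dsg2KO cells. As CPM these were 6.29, 8.11 and 8.37 against 11.5, 9.05 and 9.34, which did not overlap. The log2 fold change was 0.39 (SE 0.15, edgeR adjusted p = 0.0701). TRIB3, a pseudokinase that restrains ATF4, was at 145, 142 and 136 CPM in A431CT and 145, 147 and 136 CPM in Dsg2KO cells, with a 95% interval of the log2 fold change from -0.08 to 0.11. SESN2, a leucine sensor that inhibits mTORC1, was at 42.2, 39.9 and 41.3 CPM in A431CT and 44.4, 42.0 and 35.1 CPM in Dsg2KO cells, a log2 fold change of -0.02. Its neighbors on chromosome 1 had a median of -0.32, and SESN2 stood 0.30 above that median.

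The targets for amino acid supply moved in different directions. SLC7A11 encodes xCT, which imports cystine in exchange for glutamate and is a target of both ATF4 and NRF2. It was at 171, 172 and 187 CPM in A431CT and 123, 119 and 129 CPM in Dsg2KO cells. All Dsg2KO libraries were far below all A431CT libraries, and the log2 fold change was -0.51 (SE 0.05, edgeR adjusted p = 1.66e-06), which left 0.702 of the A431CT level. It stood just past the minimum of 0.5, and at -0.47 without A431CT replicate 3 and -0.48 without Dsg2KO replicate 2 it no longer passed that minimum. Its chromosomal neighbors had a median of 0.07. PSAT1, an enzyme of serine synthesis, was at 231, 252 and 230 CPM in A431CT and 263, 280 and 266 CPM in Dsg2KO cells. It rose with a log2 fold change of 0.18 (SE 0.04, edgeR adjusted p = 0.0056).

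PHGDH, the enzyme one step before PSAT1, was at 486, 540 and 471 CPM in A431CT and 483, 497 and 434 CPM in Dsg2KO cells. It overlapped between the conditions, with a log2 fold change of -0.08 (95% interval -0.20 to 0.03). ASNS, asparagine synthetase and the textbook ATF4 target, was at 81.6, 108 and 89.9 CPM in A431CT and 81.7, 86.6 and 80.5 CPM in Dsg2KO cells. A431CT replicate 2 stood above the other libraries, and the log2 fold change was -0.17 (edgeR adjusted p = 0.11). It was -0.26 (edgeR adjusted p = 0.0183) without A431CT replicate 1 and -0.05 (edgeR adjusted p = 0.60) without A431CT replicate 2. VLDLR, a lipoprotein receptor raised by ATF4, was too low for the test, with 5, 4 and 4 counts in A431CT and 1, 2 and 2 counts in Dsg2KO cells. The Dsg2KO level was 0.318 of the A431CT level, with an exact 95% counting interval of 0.0887 to 0.950 that covers counting error only.

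**Figure D3:**
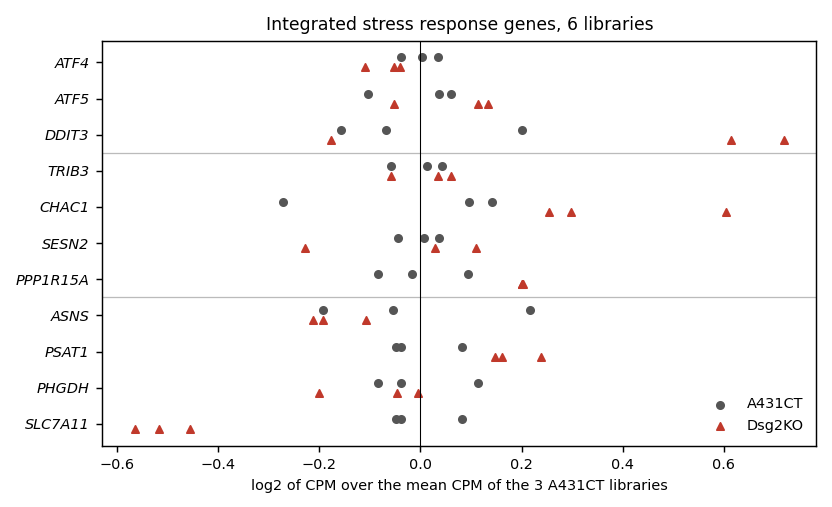
Log2 of the CPM in each library over the mean of the 3 A431CT libraries (x axis) for the 11 tested genes of the integrated stress response, with A431CT libraries as grey circles and Dsg2KO libraries as red triangles. SLC7A11 has all triangles far to the left and ATF4 just to the left of all circles. PSAT1, PPP1R15A and CHAC1 have them to the right, and those of DDIT3 are split, with 1 on the left.

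The stress genes were also set beside all tested genes by level and by chromosomal position. DDIT3, CHAC1 and DNAJB9 had the lowest levels of the 33 genes and, with SLC7A11, the largest differences in size. Of the 33 genes, 2 had neighbors with a median of -0.15 or below (HSP90B1 and SESN2), against 11.7% of all placed genes, and 1 had neighbors with a median of 0.15 or above (PHGDH), against 3.32%.

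**Figure D4:**
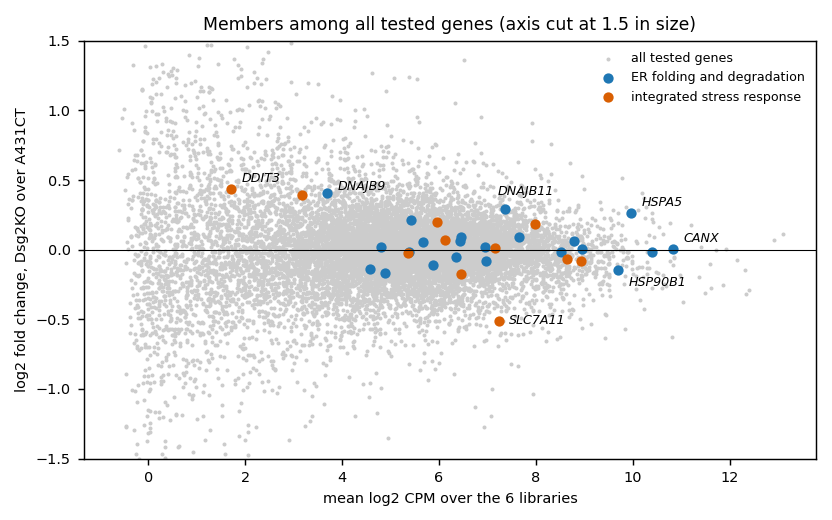
Mean log2 CPM over the 6 libraries (x axis) against the log2 fold change, Dsg2KO over A431CT (y axis, genes beyond its ends not shown), for all tested genes in grey, the folding arm in blue and the integrated stress response arm in orange. Most colored points lie close to 0, with SLC7A11 lowest at -0.51 and DDIT3 highest at 0.43.

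Other genes of these pathways were counted in 7 related lists with 159 genes, of which 155 were tested. In all, 26 passed the adjusted p-value as higher and 34 as lower, beside 14.3% and 15.3% of all tested genes, and their median log2 fold change was -0.03. Each list count below stands against the same shares, and no difference from them was tested. Genes for translocation, glycosylation and export from the ER (30 tested) were lower in 10 cases and higher in 1, with a median of -0.08 (all tested genes 15.3% lower and 14.3% higher). DDOST, a subunit of the oligosaccharyltransferase, was at 471 ± 10.5 CPM (SD, n = 3) in A431CT and 349 ± 12.9 (SD, n = 3) in Dsg2KO cells. TMED2, a cargo receptor of ER export, was at 562 ± 8.09 and 439 ± 6.96 CPM. Their log2 fold changes were -0.43 and -0.36, and the medians of their neighbors on chromosomes 1 and 12 were -0.27 and -0.35. Of the 10 lower genes, 4 had such lower neighborhoods (a median of -0.15 or below) and 6 did not. Further folding and degradation genes (37 tested) were higher in 5 and lower in 8 cases. UBE2G2, a ubiquitin-conjugating enzyme of ER-associated degradation, rose past both thresholds with a log2 fold change of 0.61, where its neighbors on chromosome 21 had a median of 0.41.

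On the side of the integrated stress response, 8 of 21 tested stress output genes outside the 34 were higher and 3 lower, with a median log2 fold change of 0.13 (all tested genes 14.3% higher and 15.3% lower). The number of higher genes ranged from 6, with DESeq2 among others, to 10 over the settings tried. ADM2, a peptide hormone of the adrenomedullin family, was at 2.37 ± 0.179 CPM (SD, n = 3) in A431CT and 5.34 ± 1.08 (SD, n = 3) in Dsg2KO cells, a log2 fold change of 1.17 (SE 0.23, edgeR adjusted p = 0.0013). ATF3, a stress factor of the ATF family, and KLHL24, an adaptor that controls keratin turnover, rose with log2 fold changes of 0.62 (edgeR adjusted p = 0.044) and 0.51 (edgeR adjusted p = 0.0014). DDIT4, an mTORC1 inhibitor raised by stress and hypoxia, fell from 335 ± 37.4 CPM (SD, n = 3) in A431CT to 227 ± 20.7 (SD, n = 3) after knockout, by 0.56 on the log2 scale. Among the tRNA synthetases and the tRNA export receptor XPOT (13 tested), 3 were higher, led by TARS1 at 0.24. The 2 lower genes were YARS1 at -0.28 and XPOT at -0.165. The neighbors of TARS1 had a median of 0.15, those of YARS1 -0.30 and those of XPOT -0.11. Amino acid transport and one-carbon genes (18 tested) were higher in 3 cases and lower in 4. There CBS, of the transsulfuration pathway, rose by 0.79 on chromosome 21, where its neighbors had a median of 0.41. PYCR1, the last enzyme of proline synthesis, had a log2 fold change of -0.59, and its neighbors had a median of -0.21.

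Kinases and subunits around eIF2 (18 tested) were higher in 3 cases and lower in 4, and all 4 lower genes had neighbors with a median of -0.15 or below. EIF2B3, a subunit of the exchange factor eIF2B, had a log2 fold change of -0.53 and neighbors with a median of -0.32. Cytosolic heat shock genes, listed together with the mitochondrial HSPD1 and HSPE1 (18 tested), were higher in 3 and lower in 3 cases, with a median of 0.01. HSPE1, the mitochondrial co-chaperonin, fell with a log2 fold change of -0.53. HSPB1, the small heat shock protein Hsp27, was at 9.17 ± 1.60 CPM (SD, n = 3) in A431CT and 0.504 ± 0.207 (SD, n = 3) in Dsg2KO cells, a log2 fold change of -4.16 (SE 0.28, edgeR adjusted p = 9.24e-08). Both have processed copies elsewhere in the genome, and how shared reads were assigned is not given in the sources used here.

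**Figure D5:**
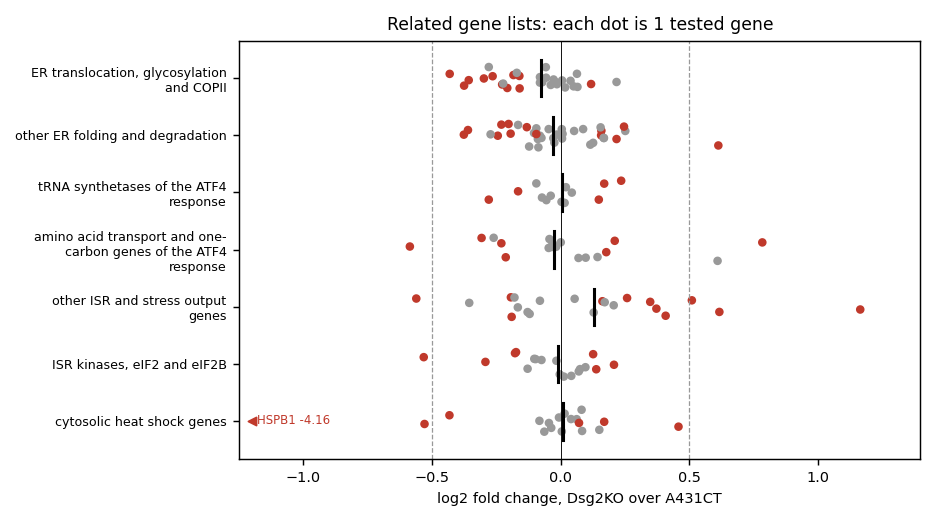
Log2 fold change (Dsg2KO over A431CT, x axis) of each tested gene in the 7 related lists, red where the adjusted p-value is under 0.05 and grey otherwise, with black bars at the list medians, dashed lines at 0.5 in size, and HSPB1 marked at the left edge with its value of -4.16. The medians range from -0.08 for the ER translocation list to 0.13 for other stress output genes.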

How the data were processed

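Total RNA of A431CT and Dsg2KO cells was sequenced as paired-end reads (polyA RNA, NEBNext Ultra libraries). The authors trimmed the reads, aligned them to GRCh38 (hg38) in CLC Genomics Workbench version 23 and counted them per gene. The deposited table holds raw counts per gene symbol for the 6 libraries, without normalization. Annotation and strand setting are not given in the sources used here.

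All 21462 rows and all 6 columns were used. Counts were analysed with R 4.3.3 and edgeR 4.0.16: filterByExpr (minimum count 10, minimum total 15), TMM factors (0.990 to 1.01), quasi-likelihood fit without covariates and Benjamini-Hochberg adjustment over 12857 genes. Genes passed at an adjusted p-value under 0.05, and under the second rule also at a log2 fold change of 0.5 or more in size. CPM use TMM-scaled totals. Standard errors are the log2 fold change divided by the square root of F. The fit was tested on simulated data. GENCODE 44 gave positions and exon lengths (19491 genes placed), and RefSeq (GRCh38.p14) the promoters. A neighborhood is the 25 nearest tested genes on each side, and its 0.15 limit was chosen after seeing the data.

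The fit was repeated without the low-count filter, with at least 10 counts in every library, with RLE factors, total counts, DESeq2 1.42.0, the likelihood ratio test, each library left out, a replicate block, a minimum of 1, and subtraction of neighborhood medians. Replicate numbers did not pair the libraries (residual correlations -0.003 to 0.054). Replicates differed by more than counting noise (chi-square per degree of freedom 2.66 to 4.20). The 34 genes and the related lists were chosen with earlier results of these data known. Leukocyte markers are not reported here. Named beside the 34 were DSG2, marker genes, and from each list those past both thresholds or else the 2 with the smallest p-values. ALG12, MARS1, UQCC6, SLC7A11-AS1, HRG-AS1 and TBCCD1 were named for their overlap after values were seen. Figures were drawn with matplotlib 3.10.9.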

Additional observations from a re-analysis of the deposited data

How the results depend on the processing

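The number of stress genes past the adjusted p-value stayed between 4 and 7 for higher and 2 and 3 for lower genes over all settings. Total counts raised the higher folding arm genes from 3 to 5. The lower genes of the integrated arm numbered 2 in place of 1 without the low-count filter and with the replicate block, where ASNS was at -0.17 (edgeR adjusted p = 0.0448). The block changed no other call among the 34 genes, and raised the higher genes from 3 to 6 in the amino acid and one-carbon list and from 3 to 5 in the heat shock list. Other settings gave 5 higher genes in each of these lists (both with total counts, the first also without the low-count filter or A431CT replicate 2, the second also with DESeq2 or without Dsg2KO replicate 3). With 1 library left out, the lower genes of the further folding list fell to as few as 5. In such fits those of the amino acid list fell to 2 and those of the tRNA synthetase list to 1. The higher genes of the translocation list fell there to 0 and those of the eIF2 list to 1. With 1 library left out, the higher genes of the integrated arm ranged from 1 to 2, the lower ones from 1 to 2, the lower folding arm genes from 1 to 2, and the lower genes past both thresholds from 0 to 1. This last number was also 0 with total counts, where SLC7A11 was at -0.49, and with a minimum of 1, where 250 of all genes passed in place of 775. Without a minimum 3802 of all genes passed, and with DESeq2 2858. Subtraction of the neighborhood median reversed 1 called gene, HSP90B1, from -0.147 to 0.084, and among genes that had not passed it changed the sign of ATF6 (-0.071), EIF2AK3 (-0.021), DNAJC3 (-0.015), PDIA4 (-0.031) and SESN2 (0.298). Other changes of sign were in genes that had not passed. With total counts CALR was at 0.006, PDIA3 at 0.003 and HERPUD1 at 0.007. With 1 library left out, the range was -0.003 to 0.125 for ATF6, -0.045 to 0.078 for EIF2AK3, -0.042 to 0.000 for CALR, -0.023 to 0.022 for CANX, -0.059 to 0.017 for PDIA3, -0.010 to 0.016 for PDIA4, -0.029 to 0.007 for HERPUD1, -0.012 to 0.062 for SEL1L, -0.015 to 0.048 for TRIB3 and -0.092 to 0.069 for SESN2. Counts per library were lowest for VLDLR, DDIT3, CHAC1 and DNAJB9. The causes of these changes were not tested.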
